A study of Mus musculus with 4 samples.

Results

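The genes described here are 42 ligands, receptors, antagonists, SMAD proteins and targets of transforming growth factor β (TGF-β), bone morphogenetic protein (BMP) and activin signalling. They were taken by gene symbol from a fixed list, and all 42 were found among the 32681 genes of the deposited table. RNA sequencing covered 4 primary neuron cultures from the neocortex of wild-type CD-1 mice, an outbred strain, at embryonic day 13. All were grown in Neurobasal medium with pyruvate, GlutaMax, penicillin, streptomycin and B27. Controls 1 and 2 were transfected with control shRNA. The other 2 cultures, DcpS shRNA 1 and 2, were transfected with an shRNA against DcpS, an enzyme that breaks down the cap structure released when mRNAs are degraded. The titles of both carry the same hairpin label, so loss of DcpS and other effects of this hairpin cannot be told apart. The labels give neither the hairpin sequences, the share of cells transfected nor the time to harvest. They do not tie the cultures to separate litters either, and the p-values thus reflect the spread among these 4 samples, which may be technical.

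Ligands of this family are secreted dimers that bring together type I and type II receptors, which are serine/threonine kinases. The type II receptor phosphorylates the type I receptor, which phosphorylates receptor SMADs, Smad2 and Smad3 for TGF-β and activin and Smad1 and Smad5 for BMPs. Receptor SMADs enter the nucleus with Smad4, and inhibitory SMADs and extracellular antagonists restrain the pathway. In the developing cortex BMPs made at the dorsal midline, choroid plexus and meninges pattern the tissue and favour astrocyte fate, and the Id genes are classical BMP targets.

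Of the 42 genes, 7 (16.7%) were lower with DcpS shRNA and 0 were higher, where 5.79% of all genes tested passed in either direction. The 42 genes were chosen with earlier results of these data known, so their share of calls beside all genes is a description only. The lower genes were the ligands Tgfb1, Tgfb3 and Inhba, the receptors Acvr1 and Tgfbr2, and the secreted proteins Grem1 and Fstl1. Calls rest on limma with a Benjamini-Hochberg adjusted p under 0.05 over all 18110 genes tested, of which 3.65% were lower and 2.14% higher. Over the 42 genes the median log2 fold change was −0.11, beside 0.00 over all genes tested, and 31 of 42 fitted changes lay below 0. At an unadjusted p under 0.05, limma had 13 of the 42 lower and 1 higher, edgeR 14 and 1, and DESeq2 7 and 0. At the adjusted threshold edgeR and DESeq2 also called 0 higher. In 17 of the 42 genes both DcpS shRNA libraries lay below both controls, and in 6 above, where 24.0% and 24.4% of all genes tested did so. The adjusted calls fell to 1 of the 42 with DESeq2, Acvr1, where DESeq2 called 448 of the 18110 genes. Leaving out control 1 or control 2 also lowered the number of the 42 genes called.

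**Figure D1:**
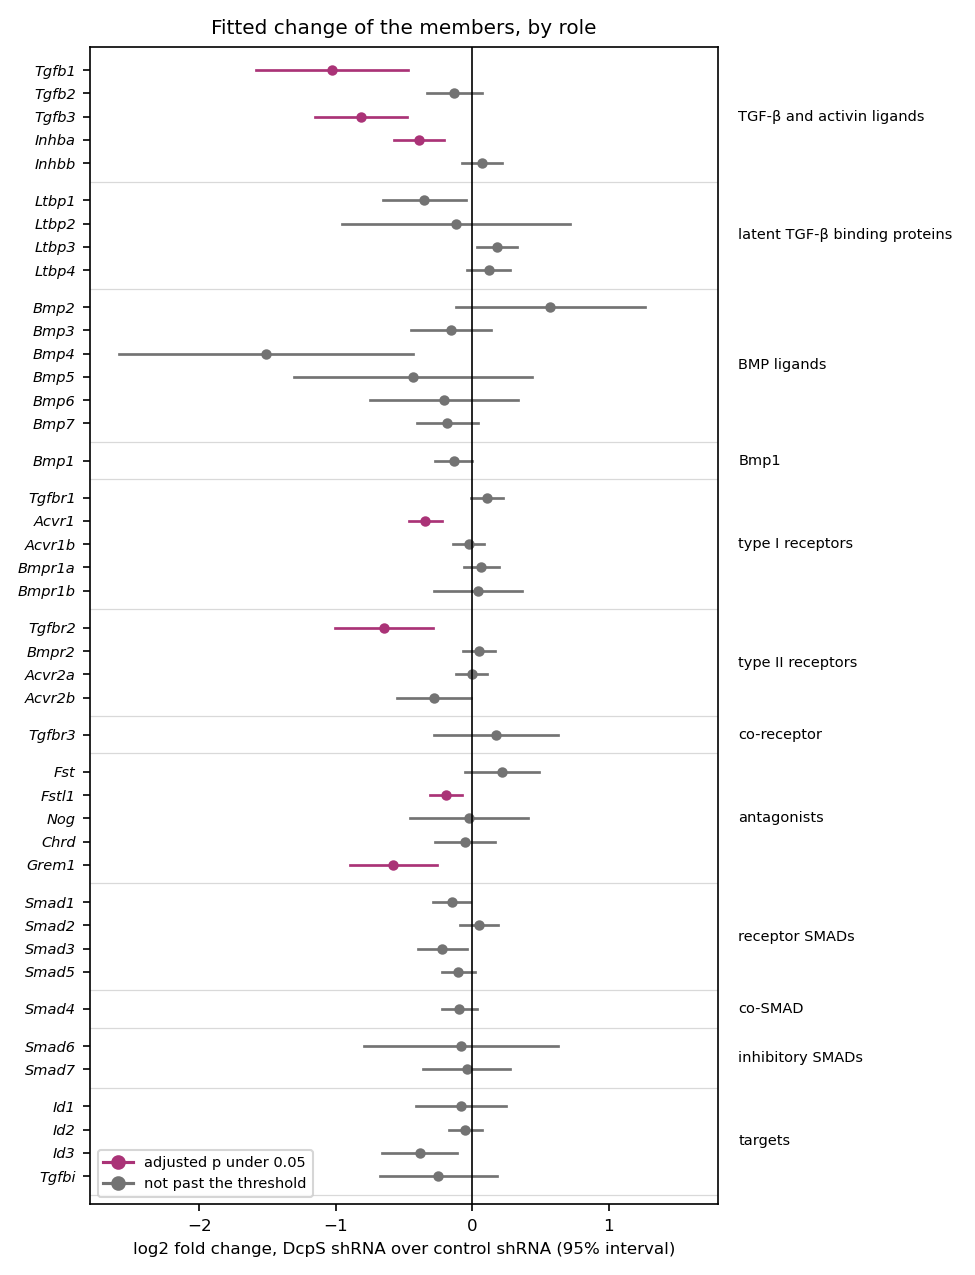
Fitted log2 fold change of each of the 42 genes (DcpS shRNA over control shRNA, 2 libraries per group) with its 95% interval from limma, ordered by role. The 7 genes with an adjusted p under 0.05 lie below 0, and the widest interval is that of Bmp4, a gene with few reads.

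Of the 7 lower genes, 2 carry in their annotated 3′ UTR a 7-base word that is also found in the Dcps transcript. The words ACGTGCA and CACGTGC were linked to lower calls in earlier work on these same data, so their presence is a description and no independent evidence. They are shown because the strongest call of the family, Acvr1, holds both. In GENCODE M21 transcripts (GRCm38) the windows below run 5′ to 3′ on the mRNA strand, with the words in capitals; only that strand was searched.
Dcps, word at base 127 of a 478-base 3′ UTR: actatcacctgCACGTGCAtttcacagctc
Acvr1, word at base 588 of a 1098-base 3′ UTR: tgcattttacaCACGTGCtgatgtttaca
Acvr1, word at base 995 of the same 3′ UTR: aattatccattACGTGCAtttaaactctg
Tgfbr2, word at base 1656 of a 6085-base 3′ UTR: acacccacacaCACGTGCAcacactagaaa
Smad3, word at base 189 of a 3495-base 3′ UTR: tctgctacataCACGTGCccctgtctgaa
Bmp4, word at base 240 of a 339-base 3′ UTR: tttatgactttACGTGCAaatgttttgac
In Dcps and Tgfbr2 both words are present and overlap. A word was present in 4 of the 42 genes (9.52%), 2 of 7 lower genes and 2 of 35 that did not pass the test. Over the tested genes with an annotated 3′ UTR it was present in 1107 of 13842, and in 33.0% of the 648 lower genes scanned. The other 5 lower genes, Tgfb1, Tgfb3, Inhba, Grem1 and Fstl1, hold neither word. The part of the words in the change of Acvr1 or Tgfbr2 was not tested.

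Before the genes are taken by role, the libraries and the label check are as follows. Recovered reads per library ranged from 17754768 to 21793685. At this depth a gene without reads could have up to 3, or 0.138 to 0.169 CPM, from counting error alone. Dcps itself, in normalised reads (reads divided by the authors' library factor), stood at 499.8 and 506.6 in controls against 114.5 and 119.6 in the knockdown cultures, or 23.3% of the control mean. Markers of neurons were high in every library, with a summed level of the 10 listed genes of 1138 and 1154 RPKM in controls against 1080 and 1114 RPKM with DcpS shRNA. Of these 10 neuron markers 1 was lower and 1 higher, and 8 had a fitted change below 0. Without overlap 5 lay below the controls and 2 above, with a median log2 fold change of −0.03. RPKM here is the recovered reads divided by annotated exon length and library total. Markers of other cells were also present: the 12 meningeal fibroblast markers summed to 76.4 and 82.9 RPKM in controls against 47.4 and 45.4 RPKM with DcpS shRNA, with none at 0 in all libraries. Of the 11 fibroblast markers tested 8 were lower and 0 higher, the fitted change of each lying below 0. The 7 mural cell markers summed to 8.04 and 8.27 RPKM against 4.77 and 4.38 RPKM, with 2 of 6 lower. The 7 endothelial markers, all with means under 1 RPKM, summed to 1.06 and 1.26 RPKM against 0.805 and 0.830 RPKM, with 1 of 4 lower. In each of these 2 lists 1 tested marker lay above the controls without overlap. Of the 8 astrocyte markers tested 4 were lower and 1 higher, and 7 lay below the controls without overlap, with a median log2 fold change of −0.48. Gfap, an intermediate filament of astrocytes, stood at 51.1% of the control mean, the water channel Aqp4 at 45.8%, the gap junction gene Gja1 at 62.9% and the bicarbonate transporter Slc4a4 at 69.3%. The summed level of the 9 listed astrocyte genes was nevertheless 89.2 and 90.3 RPKM in controls against 92.7 and 93.9 RPKM with DcpS shRNA. Most of that sum was the glycolytic gene Aldoc (63.4 RPKM), the 1 higher gene at 116% of the control mean. The 6 oligodendrocyte lineage markers summed to 4.56 and 4.87 RPKM against 4.04 and 4.09 RPKM, with 1 lower and 1 higher of 5 tested. In these bulk libraries, fewer cells of a type and less RNA per cell cannot be told apart.

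Levels within the family spanned a wide range. By mean over the 4 libraries, 11 genes lay at 10 RPKM or above, 20 between 1 and 10 RPKM and 11 under 1 RPKM. Id2, a helix-loop-helix inhibitor abundant in neurons, stood at the top with 114 RPKM (SD 6.03, n = 4 libraries). Next came the type I receptor Tgfbr1 (29.6 RPKM, SD 1.65) and the shared Smad4 (28.6 RPKM, SD 1.84), whose ranges over libraries overlapped. The ligands lay lower: Inhbb led them at 9.66 RPKM (SD 0.455), and Bmp5 was lowest of the BMPs at 0.169 RPKM (SD 0.0473). Among the lower genes 2 had means of at least 10 RPKM (Acvr1, Fstl1), 3 lay between 1 and 10 RPKM (Inhba, Grem1, Tgfb3) and 2 under 1 RPKM (Tgfbr2, Tgfb1).

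**Figure D2:**
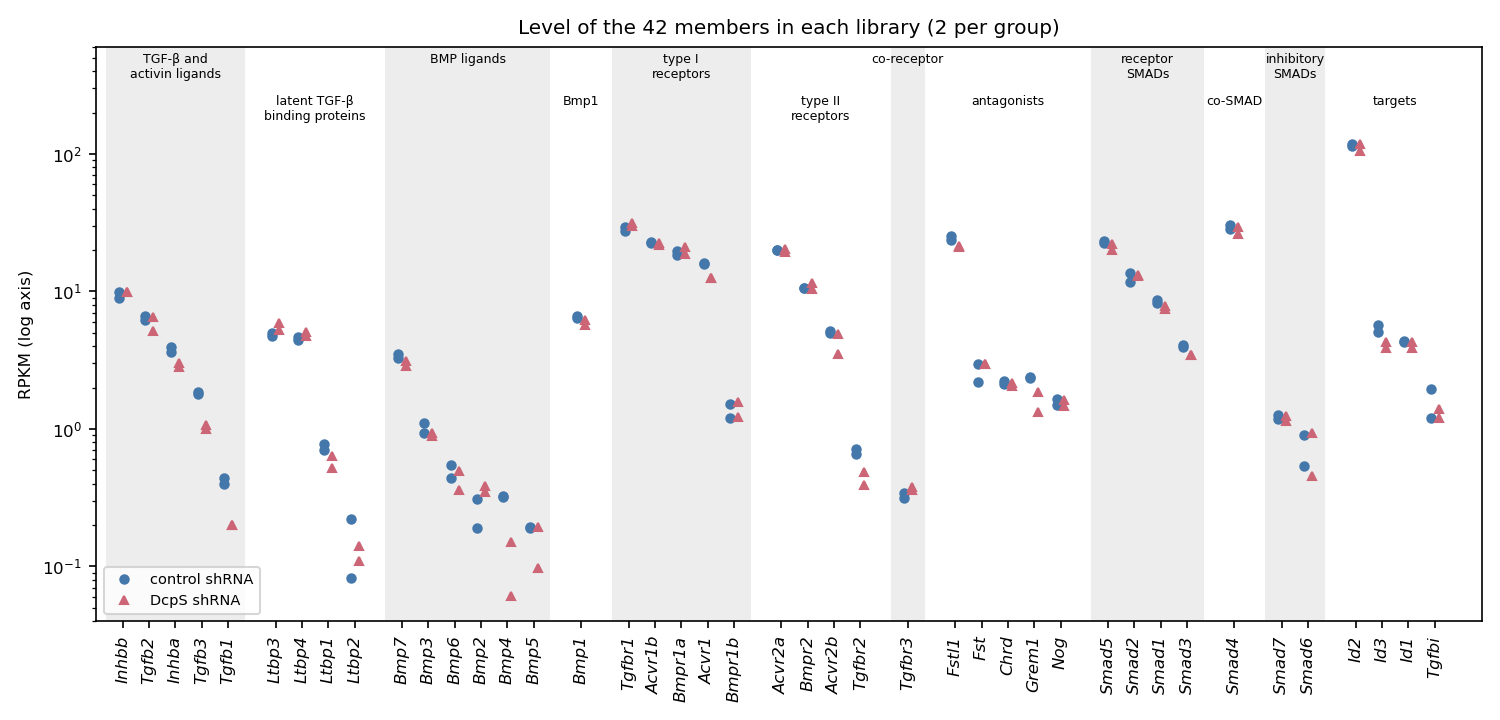
Level of each of the 42 genes in RPKM on a log axis, with 1 point per library (circles, control shRNA; triangles, DcpS shRNA), ordered within each role by mean level. Id2 stands at the top near 114 RPKM, the BMP ligands run from 3.52 down to 0.0612 RPKM, and groups lie close together in most genes beside the distances between genes.

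The TGF-β and activin ligands held 3 of the 7 lower genes. Their levels ran in the order Inhbb, Tgfb2, Inhba, Tgfb3 and Tgfb1, from 9.66 to 0.311 RPKM, with no overlap between neighbours in any library. Tgfb1 (chromosome 7, 25687002 to 25705077, plus strand, GRCm38) encodes the prototype ligand, made in brain largely by microglia and vascular cells. Normalised reads were 39.9 and 44.1 for the controls, against 19.99 and 20.11 for DcpS shRNA. Both treated libraries lay near the same value, at 47.7% of the control mean. The log2 fold change was −1.03 (SE 0.26, limma, Benjamini-Hochberg adjusted p 0.0280) and rests on 18 to 43 reads per library. Leaving out control 1 ended the call (Benjamini-Hochberg adjusted p 0.0841 in limma), as did leaving out control 2 (0.184) or using DESeq2 (0.305). Of 8 microglia markers tested 0 passed limma (1 at an unadjusted p under 0.05, higher), 0 edgeR and 0 DESeq2, which gave no adjusted p for 5. The sum of the 9 listed microglia markers was 5.09 and 5.01 RPKM in controls against 4.60 and 5.26 RPKM with DcpS shRNA. Of the 8 markers 3 lay below the controls without overlap and 2 above, with a median log2 fold change of −0.18, and their part in the change of Tgfb1 was not tested.

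Tgfb3 (chromosome 12, 86056745 to 86079041, minus strand) encodes the isoform known for its part in palate development. It measured 119.7 and 124 normalised reads in controls against 66.3 and 71.5 with DcpS shRNA, with a wide gap between the groups. It changed by −0.81 on the log2 scale (SE 0.16, limma, Benjamini-Hochberg adjusted p 0.00518), to a mean of 68.9 ± 3.67 from 122 ± 3.09 (SD, n = 2 per group). The call held without each library in turn and ended with DESeq2 (adjusted p 0.0676). Genes on the opposite strand overlap 12.4% of its exon bases, and strand use in the counting is not given in the sources used here. Beside Tgfb1 and Tgfb3 stand the fibroblast, mural and astrocyte marker values given above, whose part in these changes was not tested.

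Inhba (chromosome 13, 16011851 to 16031621, plus strand) encodes the βA subunit that forms activin A, a ligand induced by neuronal activity. Its values were 463 and 500.5 in controls against 354 and 379.9 normalised reads with DcpS shRNA, again without overlap. The change was −0.39 (SE 0.09, limma, Benjamini-Hochberg adjusted p 0.0129). The call ended without control 2 (adjusted p 0.128) and with DESeq2 (0.104).

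The 2 most abundant ligands did not pass the test. Inhbb, the βB subunit of activin, measured 835 and 757 in controls against 834 and 834 with DcpS shRNA, a log2 difference of 0.07 with a 95% interval of −0.08 to 0.22. Tgfb2, the main TGF-β isoform of radial glia and neurons, measured 757 and 707 against 749 and 595 normalised reads, a log2 difference of −0.13 with an interval of −0.33 to 0.07. DcpS shRNA 2 is the low library there, and without DcpS shRNA 1 the difference was −0.30 and passed (limma, Benjamini-Hochberg adjusted p 0.0270).

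Latent TGF-β binding proteins anchor inactive TGF-β in the matrix. Of the 4 genes 0 passed limma (1 lower and 1 higher at an unadjusted p under 0.05), and 0 passed edgeR or DESeq2. Ltbp3 and Ltbp4, the best expressed at 5.19 and 4.74 RPKM with overlapping ranges, both lay above the controls. Ltbp3 measured 895 and 852 against 1049 and 935 normalised reads (log2 difference 0.18, 95% interval 0.03 to 0.33). Without DcpS shRNA 2 it passed in the higher direction at 0.26 (limma, Benjamini-Hochberg adjusted p 0.0320). Ltbp4 had 566 and 596 in controls against 652 and 612 with DcpS shRNA (0.12, interval −0.04 to 0.28). Ltbp1, at 148 and 163 against 134 and 111, differed by −0.35 (interval −0.66 to −0.05), and Ltbp2 had only 14 to 35 reads in any library, with overlapping groups. The family was thus split in sign, without a call on either side.

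BMP ligands were scarce, and 0 of 6 passed limma (1 lower at an unadjusted p under 0.05), edgeR or DESeq2, which gave no adjusted p for 3 of them. Bmp7, expressed by meninges and choroid plexus, was the most abundant at 3.20 RPKM. It measured 262 and 280 in controls against 228 and 249 normalised reads with DcpS shRNA, a log2 difference of −0.18 with a 95% interval of −0.41 to 0.04. Bmp3, an atypical member that opposes other BMPs, measured 162 and 137 against 137 and 131 (−0.16, interval −0.45 to 0.14). In both ligands the treated libraries lay below the controls, by a gap smaller than the distance between the 2 controls.

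Bmp4, a dorsal midline morphogen, had the largest fitted change of the family without passing the test. It was counted 15 and 14 times in the controls and 3 and 6 times with DcpS shRNA, or 14.3 and 14.4 against 2.73 and 6.70 normalised reads. The log2 difference was −1.51 (SE 0.51, 95% interval −2.59 to −0.44, limma, Benjamini-Hochberg adjusted p 0.102). Without DcpS shRNA 2 it was −2.04 and passed (adjusted p 0.0425). Bmp2 lay higher, at 21.9 and 13.3 against 27.3 and 24.6 normalised reads (0.57, interval −0.12 to 1.26), and Bmp5 and Bmp6 overlapped between groups. An antisense gene covers 46.7% of the exon bases of Bmp5. The 6 choroid plexus markers summed to 222 and 230 RPKM in controls against 168 and 182 RPKM with DcpS shRNA. Of the 5 tested 1 was lower and 0 higher, and without overlap 3 lay below the controls and 1 above. The part of choroid plexus in the BMP values was not tested. Bmp1, which is no BMP but a protease that matures procollagen and cleaves chordin, measured 1128 and 1163 against 1091 and 997 normalised reads (−0.13, interval −0.27 to 0.00).

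Of the 9 type I and type II receptors 2 were lower, Acvr1 and Tgfbr2, and 0 passed in the higher direction with limma (0 at an unadjusted p under 0.05), edgeR or DESeq2. Acvr1 (chromosome 2, 58388644 to 58567157, minus strand) encodes a type I receptor that signals for BMPs through Smad1 and Smad5. It measured 1509 and 1544 in controls against 1206 and 1199 normalised reads with DcpS shRNA. The 2 libraries of each group nearly coincide, and the groups lie far apart beside that spread. The mean went from 1527 ± 25.2 to 1202 ± 4.66 (SD, n = 2 per group), and the log2 fold change was −0.34 (SE 0.06, limma, Benjamini-Hochberg adjusted p 0.00139). This call held in each of 12 alternative settings, with a range of −0.36 to −0.33 and an adjusted p of at most 0.0133. Both words shown above stand in its 3′ UTR. The fibroblast, mural and astrocyte marker values given above stand beside this gene too. Neither the part of the words nor that of these cell types in the change of Acvr1 was tested.

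Tgfbr2 (chromosome 9, 116084293 to 116175360, minus strand) encodes the type II receptor that binds TGF-β itself. Its values were 107 and 116 in controls against 79.0 and 63.7 normalised reads with DcpS shRNA, so the groups did not overlap but the treated libraries differed. The change was −0.65 (SE 0.17, limma, Benjamini-Hochberg adjusted p 0.0340). The call ended without control 1 (adjusted p 0.0681), control 2 (0.177) or DcpS shRNA 2 (0.154), and with DESeq2 (0.288). At a mean of 0.564 RPKM it was the scarcest of the 9 receptors, while its signalling partner Tgfbr1 was the most abundant. With DcpS shRNA the fibroblast and mural marker sums stood at 58.3% and 56.1% of the control mean and the astrocyte sum at 104%. Of the 8 astrocyte markers tested 4 were lower and 1 higher. The part of these cell types in the change of Tgfbr2 was not tested.

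The remaining abundant receptors had narrow intervals that include 0. Tgfbr1, the type I receptor for TGF-β, measured 3552 and 3828 in controls against 4062 and 3883 normalised reads with DcpS shRNA (0.11, 95% interval −0.01 to 0.22). Both treated libraries of Tgfbr1 lay above both controls, and most of its interval lies above 0. Acvr1b, the activin type I receptor, had 1992 and 1961 against 1970 and 1915 (−0.02, interval −0.14 to 0.09). Acvr2a, the activin type II receptor, measured 2240 and 2266 against 2295 and 2195 (−0.01, interval −0.12 to 0.11). For Bmpr2, the BMP type II receptor, the values were 3780 and 3787 against 4119 and 3722 (0.05, interval −0.07 to 0.17). With Bmpr1a, these 5 receptors had intervals within −0.14 and 0.22, which leaves room for changes of up to 1.17-fold.

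Acvr2b, a second activin type II receptor, measured 386 and 398 against 379 and 274 normalised reads. DcpS shRNA 2 stands apart from the other 3 libraries, and the log2 difference of −0.28 (adjusted p 0.254) became −0.52 and passed without DcpS shRNA 1 (limma, Benjamini-Hochberg adjusted p 0.00303). Bmpr1b overlapped between groups at 142 to 187 normalised reads. Tgfbr3, the co-receptor betaglycan that presents TGF-β2 and inhibin, was scarce at 0.349 RPKM. It measured 40.9 and 44.1 against 49.1 and 46.9 normalised reads (0.17, interval −0.28 to 0.63).

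Among secreted antagonists and related proteins 2 of 5 were lower. Grem1 (chromosome 2, 113746164 to 113758646, minus strand) encodes gremlin, which binds BMPs and keeps them from their receptors. It measured 197 and 192 in controls against 154 and 109.5 normalised reads with DcpS shRNA, where the controls agree closely and the treated libraries do not. The change was −0.58 (SE 0.15, limma, Benjamini-Hochberg adjusted p 0.0329). Without DcpS shRNA 2 it was −0.34 and did not pass (adjusted p 0.220). The call also ended without control 1 (0.0929) or control 2 (0.0692) and with DESeq2 (0.209).

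Fstl1 (chromosome 16, 37776873 to 37836514, plus strand) encodes a secreted follistatin-related glycoprotein, known from meninges and glia. At 22.8 RPKM it was the best expressed of the 5 and stood above Fst without overlap. Its values were 2293 and 2454 in controls against 2050 and 2094 normalised reads with DcpS shRNA. The change of −0.20 (SE 0.06, limma, Benjamini-Hochberg adjusted p 0.0494) lay at the threshold. The call ended without control 1 (0.0843), control 2 (0.456) or DcpS shRNA 1 (0.0548), with scaling to library totals (0.0516) and with DESeq2 (0.194). Of the fibroblast markers 8 of 11 were lower, of the mural markers 2 of 6 and of the astrocyte markers 4 of 8, with 1 astrocyte marker higher. Their part in the changes of Grem1, Fstl1 and Inhba was not tested.

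Fst, Chrd and Nog, which trap activin and BMPs, did not pass. Follistatin (Fst) measured 199.5 and 268 in controls against 269 and 269 normalised reads with DcpS shRNA, control 1 being the low library (0.22, 95% interval −0.05 to 0.49). Chordin (Chrd) measured 277 and 262 against 267 and 253 (−0.05), and noggin (Nog) 55.1 and 50.3 against 54.5 and 49.2 (−0.02), with overlapping groups for both. The ranges in RPKM of Fst, Chrd, Grem1 and Nog overlapped from each gene to the next in that order.

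**Figure D3:**
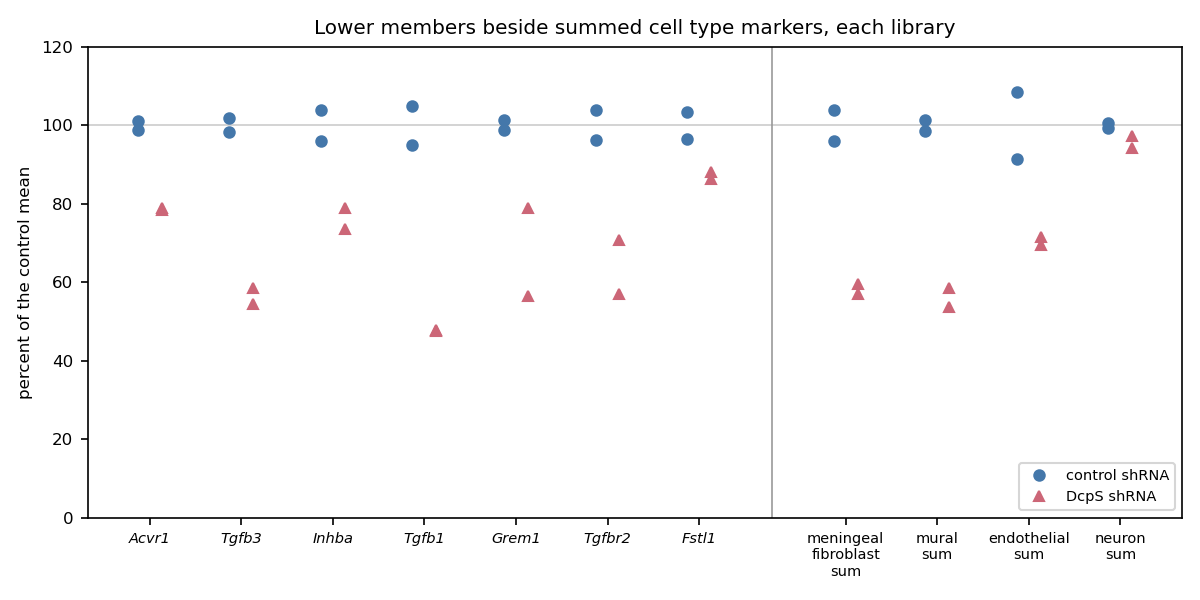
The 7 lower genes and 4 summed marker lists in each library as a percent of the control mean (circles, control shRNA; triangles, DcpS shRNA; marker lists summed in RPKM). With DcpS shRNA Tgfb1 lies lowest (47.6 and 47.9 percent), the fibroblast sum is at 59.5 and 57.0 percent, the mural sum at 58.5 and 53.7 percent and the neuron sum at 94.3 and 97.2 percent.

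None of the 7 SMAD genes passed limma (2 lower at an unadjusted p under 0.05), and edgeR and DESeq2 also called 0. Smad5, a BMP receptor SMAD and the most abundant of the 4 receptor SMADs at 22.0 RPKM, measured 3401 and 3284 in controls against 3269 and 2967 normalised reads with DcpS shRNA (−0.10, 95% interval −0.22 to 0.02). Without DcpS shRNA 1 it passed at −0.17 (limma, Benjamini-Hochberg adjusted p 0.0390). Smad2, which follows TGF-β and activin, measured 2036 and 2369 against 2302 and 2237 (0.05, interval −0.09 to 0.19). Smad3, its partner for the same ligands, measured 449 and 433 against 379 and 379 normalised reads, and carries a word shown above. Its groups were apart, and its difference was −0.22 (interval −0.40 to −0.04, adjusted p 0.165). Smad1 measured 1023 and 1079 against 918 and 974 (−0.15, interval −0.29 to −0.02). Smad4 measured 2107 and 2240 against 2152 and 1923 (−0.09, interval −0.23 to 0.04). Receptor SMADs ranked Smad5, Smad2, Smad1 and Smad3 by RPKM, with no overlap between neighbours.

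The inhibitory SMADs are themselves induced by the pathway and were scarce here. Smad7, an inhibitor of TGF-β and BMP receptors, measured 114 and 106 in controls against 103 and 111 normalised reads with DcpS shRNA (−0.04, 95% interval −0.36 to 0.27). Smad6, which acts mainly on BMP signalling, measured 57.0 and 33.8 against 59.1 and 29.1. Replicates numbered 1 are high and those numbered 2 low in both groups, so Smad6 varied with the replicate number more than with the hairpin.

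Of the 4 target genes 0 passed limma (1 lower at an unadjusted p under 0.05), edgeR or DESeq2. Id2 measured 5497 and 5719 in controls against 5108 and 5742 normalised reads with DcpS shRNA (−0.05, 95% interval −0.17 to 0.07). Id1, a sensitive BMP target, measured 97.9 and 101 against 98.1 and 89.4 (−0.08, interval −0.41 to 0.25), with overlapping groups. Id3, another BMP target, measured 201 and 178 against 138 and 152 (−0.39, interval −0.66 to −0.11, adjusted p 0.101), with both treated libraries below both controls. Tgfbi, a matrix protein named for its induction by TGF-β, measured 89.3 and 147 against 89.0 and 104, so the controls differed more than the groups. In the RefSeq table (GRCm38.p6) 30 of the 42 genes have a promoter window of 250 bases before to 50 after a start. The palindrome GTCTAGAC, a SMAD-binding element that reads alike on both strands, was found in 1 of these, Smad6, and in 0.248% of all genes in the table. The GC-rich word GGCGCC, also palindromic, was found in 10 of the 30 (33.3%) and in 13.4% of all genes. Those are all genes of that table, not matched for base composition or expression, and the difference was not tested. Among the lower genes with a window only Grem1 holds GGCGCC.

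**Figure D4:**
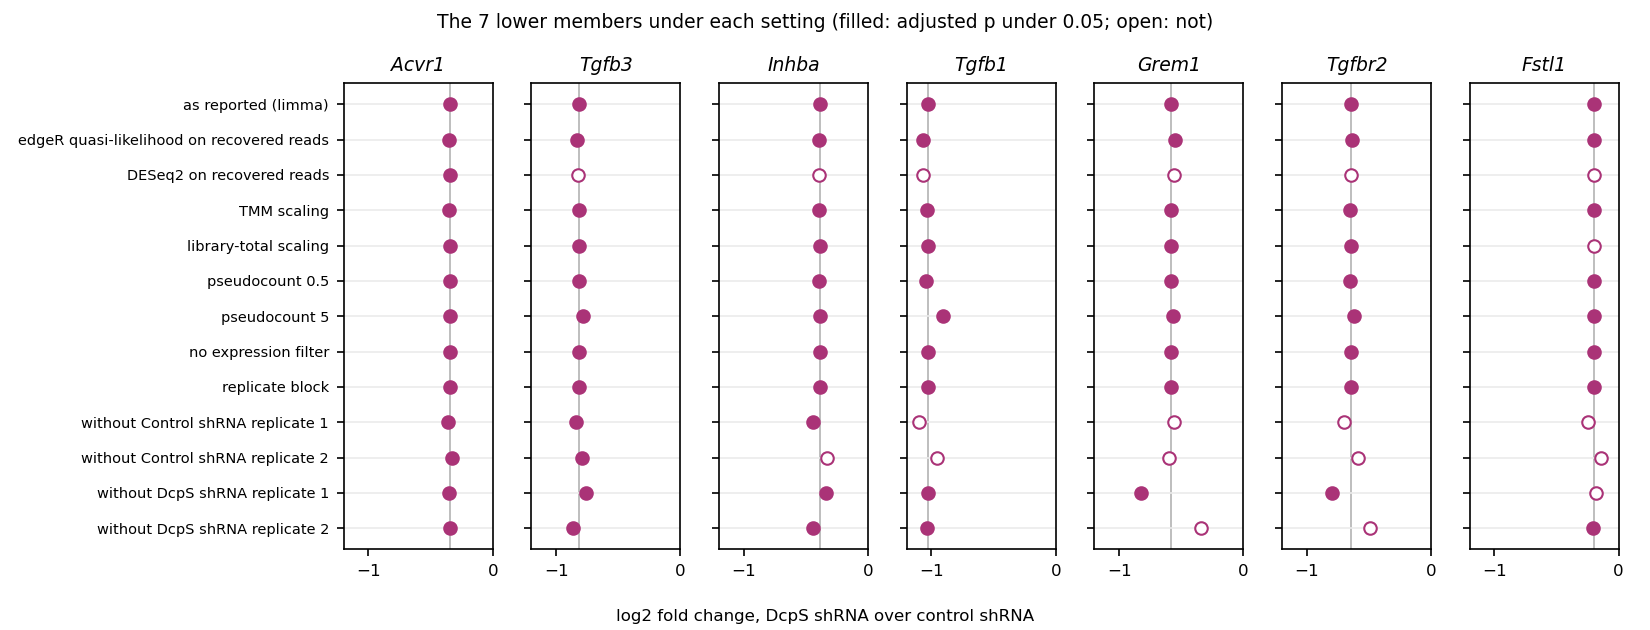
Log2 fold change of the 7 lower genes in the fit as reported and in 12 alternative settings, filled where the adjusted p is under 0.05. Every value lies below 0, Acvr1 is filled throughout, and Fstl1 is open in 5 of 12 alternatives.

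Of 76 further genes of the pathway listed for context, 72 were in the table and 51 passed the filter on low counts. Of these 11 were lower and 3 higher, with a median of −0.12, beside the same 3.65% and 2.14% of all genes tested. This list was chosen with earlier results of these data known, so its share of calls beside all genes is a description only. The genes that store or activate latent TGF-β held 4 of the lower calls among 9 tested. Furin, the protease that cleaves TGF-β and BMP precursors, measured 671 and 635 in controls against 355 and 354 normalised reads with DcpS shRNA. It changed by −0.88 (SE 0.08, limma, Benjamini-Hochberg adjusted p 5.24e-06), and its 3′ UTR holds a word shown above. The fibrillins Fbn1 (−1.08) and Fbn2 (−0.52), microfibril proteins to which latent complexes bind, and Thbs1 (−0.90), which activates latent TGF-β, were lower too. Fbn2 also holds a word, and the call of Fbn1 ended without a filter on low counts (limma, Benjamini-Hochberg adjusted p 0.0947). In the SMAD regulator group Ski, a nuclear co-repressor with a word, changed by −0.28, and Pmepa1, a feedback inhibitor, by −0.27. The target Ccn2 (−0.77), induced by TGF-β in many cells, was lower, as were the BMP modulators Sostdc1 (−0.86), Crim1 (−0.30) and the proteoglycan Dcn (−0.47). Dcn is also among the fibroblast markers. The fibroblast, mural and astrocyte marker values given above stand beside these context genes too. The part of those cell types in the changes of the context genes was not tested.

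Rises in the context list were few. Gdf11, an activin-like ligand that restrains neurogenesis, measured 478 and 401 in controls against 602 and 569.9 normalised reads with DcpS shRNA (0.42, SE 0.09, limma, Benjamini-Hochberg adjusted p 0.0101). Acvr1c, a type I receptor of the activin branch, measured 107 and 109 against 159.9 and 171 (0.61, SE 0.14, adjusted p 0.0126). Smurf1, a ubiquitin ligase that targets BMP SMADs and receptors, measured 1935 and 2057 against 2332 and 2258 (0.20, SE 0.06, adjusted p 0.0424). The groups do not overlap in any of the 3 genes. Without control 2 the calls ended for Gdf11 (limma, Benjamini-Hochberg adjusted p 0.129), Smurf1 (0.0896), Sostdc1 (0.0898), Crim1 (0.224), Dcn (0.0717) and Ccn2 (0.121). Without control 1 they ended for Smurf1 (0.383), Sostdc1 (0.0923), Ski (0.0779) and Pmepa1 (0.287). Without DcpS shRNA 1 the call of Smurf1 ended (0.0612), and without DcpS shRNA 2 those of Acvr1c (0.0551), Sostdc1 (0.0866) and Crim1 (0.223, log2 difference −0.17). DESeq2 called 5 of the 14, namely Furin, Fbn1, Fbn2, Thbs1 and Ski, and none of the 3 higher genes.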

How the data were processed

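The authors deposited 1 table with 1 column per library. Per the submitters' processing notes, HISAT2 2.2.0, SAMtools 1.3.1, Picard, featureCounts, DESeq2 and the build GRCm38 were used; these notes name no annotation, strand setting or handling of reads that fit several genes. The deposited values are a scaled signal: in each column 100% of values are whole multiples (tolerance 0.001) of its smallest positive value, and division by that step recovered whole reads. Genes were filtered with filterByExpr of edgeR 4.0.16 (minimum count 10), which all 42 listed genes passed. The main test was limma 3.58.1 on log2(normalised read count + 1) with trend and robust empirical Bayes in R 4.3.3, group as the only term, two-sided. Fold changes are on that scale and understate changes of low genes. For 2 cultures per group the smallest two-sided exact permutation p is 0.333, so p-values rest on limma's pooled spread. The 42 genes, the lists and the settings were chosen with earlier results of these data known. Exon lengths and 3′ UTRs came from GENCODE M21 (GRCm38), promoters from RefSeq. By rule, named with values are genes past the threshold, the 2 most abundant of each role, those with a change of at least 1.5-fold and no overlap, context genes past the threshold, and Dcps. One context gene is counted but not reported here. The other genes of the list are given more briefly, with the values that show their spread. Alternatives were edgeR and DESeq2 1.42.0 on recovered reads, other scalings, pseudocounts of 0.5 and 5, no filter, a replicate block and each library left out. The scripts were tested on simulated data.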

Additional observations from a re-analysis of the deposited data

How the results depend on the processing

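Of 84 alternative values for the 7 lower genes, 65 kept direction and call, 19 lost the call and 0 turned sign. The count of the 42 genes that passed in either direction was 1 with DESeq2, and 2 to 9 when libraries were left out in turn. Over all genes tested, 1048 passed in the main setting, 448 with DESeq2, and 594 to 1439 with a library left out. Of the 51 context genes tested, 14 passed in the main setting, 5 with DESeq2, and 7 to 13 with a library left out, not always the same genes. Without 1 library its group has a lone sample, assumed to vary like the other group. The replicate numbers share no stated origin, and same-numbered deviations correlated at 0.04 across genes; with the replicate block 1626 genes, 9 of the 42 (with Bmp4 and Id3 added) and 14 context genes passed, and Fbn1 did not (adjusted p 0.299). Fitted log2 changes turned sign in 21 of 416 alternative values of genes not called, in each case with a library left out, over these ranges: Tgfb2 −0.30 to 0.033, Inhbb −0.0023 to 0.14, Ltbp2 −0.80 to 0.57, Bmp5 −0.88 to 0.013, Bmp6 −0.43 to 0.0085, Bmpr1a −0.018 to 0.15, Bmpr1b −0.15 to 0.23, Bmpr2 −0.023 to 0.12, Acvr2a −0.038 to 0.027, Nog −0.10 to 0.050, Smad2 −0.062 to 0.16, Smad6 −0.58 to 0.42, Smad7 −0.10 to 0.013, Id2 −0.13 to 0.034 and Tgfbi −0.60 to 0.11. The cause of these shifts was not tested. Depth limits Bmp4, Bmp2, Bmp5 and Ltbp2, with 35 reads or fewer per library.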
